A study of Mus musculus with 14 samples.

Results

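Late and early differentiation in horse serum were compared in C2C12 cells, a mouse myoblast line that leaves the cell cycle and fuses into multinucleated myotubes when serum is reduced. The comparison rests on 4 of the 14 RNA libraries of the series, chosen by their labels: 2 libraries of cells kept for 7 days in DM1 and 2 libraries of cells kept for 2 days in the same medium. DM1 is a differentiation medium whose only labelled supplement is 2% horse serum, so the days in medium are the labelled difference between the groups. For reference, the series also holds DM3 (2% horse serum plus 1 µg/ml insulin, 0.5 mM IBMX, 0.5 µM dexamethasone and 2 µM rosiglitazone) and DM2 (the same additions in 10% fetal calf serum), each with 2 libraries at day 7 and 2 at day 2, and 2 libraries at day 0 in growth medium with 20% fetal calf serum. Media were renewed every other day, and the time between the last renewal and harvest is not stated in the labels. All libraries come from 1 cell line with no transgene or gene deletion named, and the labels do not say whether replicates are separate cultures, so the spread behind each p-value may be technical in part.

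In the textbook account of this system, proliferating myoblasts carry MyoD and Myf5, withdrawal from the cell cycle is marked by myogenin and the p21 inhibitor, and fused cells then switch on the sarcomere, the contractile repeat of actin and myosin filaments. Some cells do not fuse and persist between the myotubes as quiescent mononucleated reserve cells. Entry into S phase depends on E2F transcription factors, which switch on the helicase loaders and nucleotide enzymes, while the mitotic genes are driven later in the cycle through the promoter elements called CDE and CHR. Glucocorticoids act through the receptor encoded by Nr3c1 on a set of target genes such as Fkbp5 and Tsc22d3, and the enzyme encoded by Hsd11b1 regenerates active glucocorticoid inside cells.

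The 4 DM1 libraries held 22233162 to 26580181 expected counts each, and between 20409 and 21111 genes with at least 1 count. Desmin, the intermediate filament of muscle cells, was at 1152 and 1147 CPM (counts scaled to a common library size) at day 7, against 1175 and 1110 CPM at day 2. Replicates ranked genes alike, with Spearman's rho of 0.9937 at day 7 and 0.9891 at day 2. Reads given to processed pseudogenes made up 2.371% and 2.327% of counts at day 7, against 1.291% and 2.144% at day 2, so replicate 1 at day 2 stood apart. The same library had 31844 expected counts for Gapdh, against 10318 in replicate 2 at day 2 and 11580 and 12976 at day 7, and genes with many processed copies share reads with them. Replicate 1 of day 0 had a similarly low pseudogene share, 1.283%. Among the other media, replicate 2 of DM3 at day 2 stood apart, with 0.5836% of counts on pseudogenes and 17750 genes detected, and it enters every difference from DM3 given here. In bulk RNA, fewer cells of a type and less RNA per cell cannot be told apart.

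Of 15973 genes tested, 2691 (16.8%) were higher at day 7 than at day 2 and 2791 (17.5%) were lower, 34.3% in all, at an adjusted p under 0.05 (edgeR quasi-likelihood test, Benjamini-Hochberg adjustment over all genes tested). Genes past this threshold are called. A fit without 1 library leaves its group with a single library, which is assumed to vary like the other groups. A list count given without 1 library names 1 such fit, and leaving out another library may give the same count. The number called higher was 1774 without replicate 1 and 1717 without replicate 2 of day 2. Calls with at least a 2-fold difference were fewer, 917 higher (5.74%) and 712 lower (4.46%). Both day 7 libraries lay above both day 2 libraries for 6057 genes (37.9%) and below them for 5395 (33.8%). The median log2 change over all genes tested was 0.04, and the counts for each gene list below are read against these shares. Values are CPM on library totals scaled by TMM, in the order replicate 1, replicate 2, and a log2 change is day 7 minus day 2 with its standard error (SE).

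**Figure D1:**
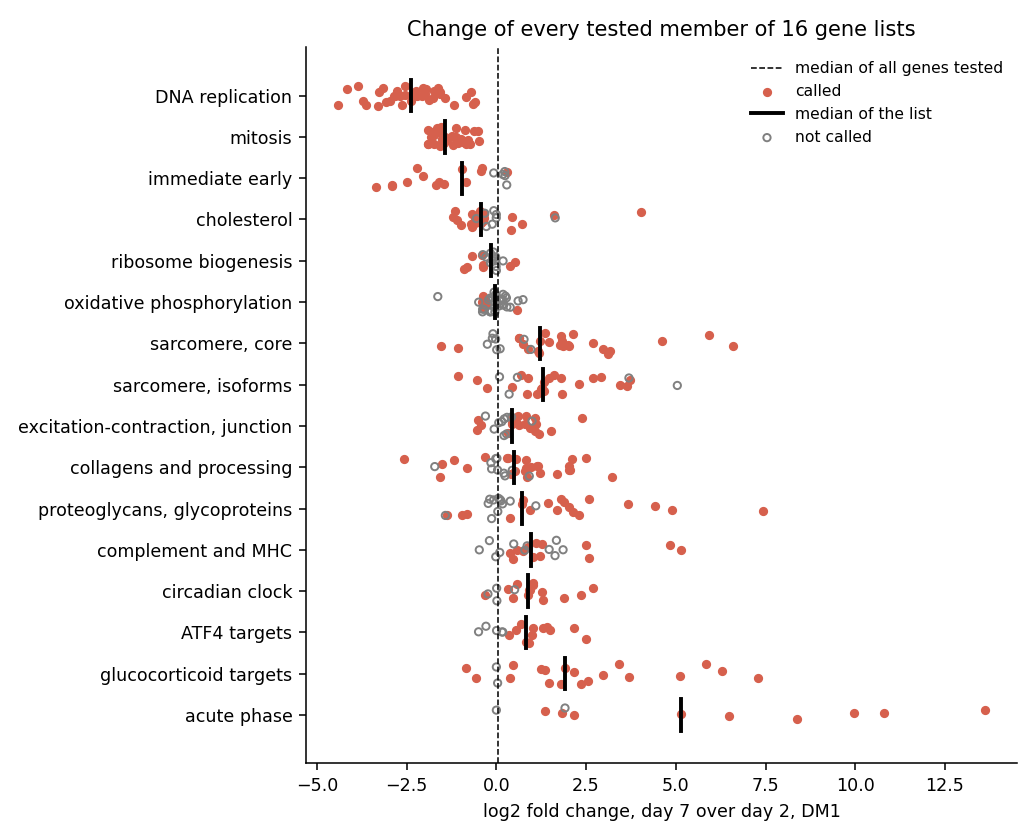
Log2 change from day 2 to day 7 in DM1 (horizontal axis) for every tested member of 16 gene lists; filled points are called, open points are not, the black bar is the median of the list and the dashed line that of all genes tested. All replication and mitosis genes lie left of the line, while the glucocorticoid list has a median of 1.93; fitted values of genes with no count at day 2 depend on the prior count of the fit.

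Serpina3n, an extracellular serine protease inhibitor of the acute phase response (chromosome 12, 104406729 to 104414329, GRCm38), was at 169.7 and 157.8 CPM at day 7, against 0.084 and 0.225 CPM at day 2. Its log2 change was 9.97 ± 0.39 (1005-fold higher, adjusted p = 9.91e-08), and without replicate 2 of day 2 it was 10.85. Cilp, a matrix protein of cartilage intermediate layers that binds TGF-beta (chromosome 9, 65265180 to 65280605), had 26.4 and 29.47 CPM at day 7, against 0.168 and 0.15 CPM at day 2. The change was 7.42 ± 0.46 (171-fold higher, adjusted p = 1.61e-06), from 1447 counts at day 7 and 8 at day 2, and no DM3 or DM2 library exceeded 0.1643 CPM. Mcm3, a subunit of the replicative helicase (chromosome 1, 20802968 to 20820312), went the other way, with 7.304 and 4.716 CPM at day 7 and 106.9 and 111 CPM at day 2. Its change was -4.17 ± 0.17 (18-fold lower, adjusted p = 1.15e-08). For none of the 3 genes did the libraries of the 2 days overlap.

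**Figure D2:**
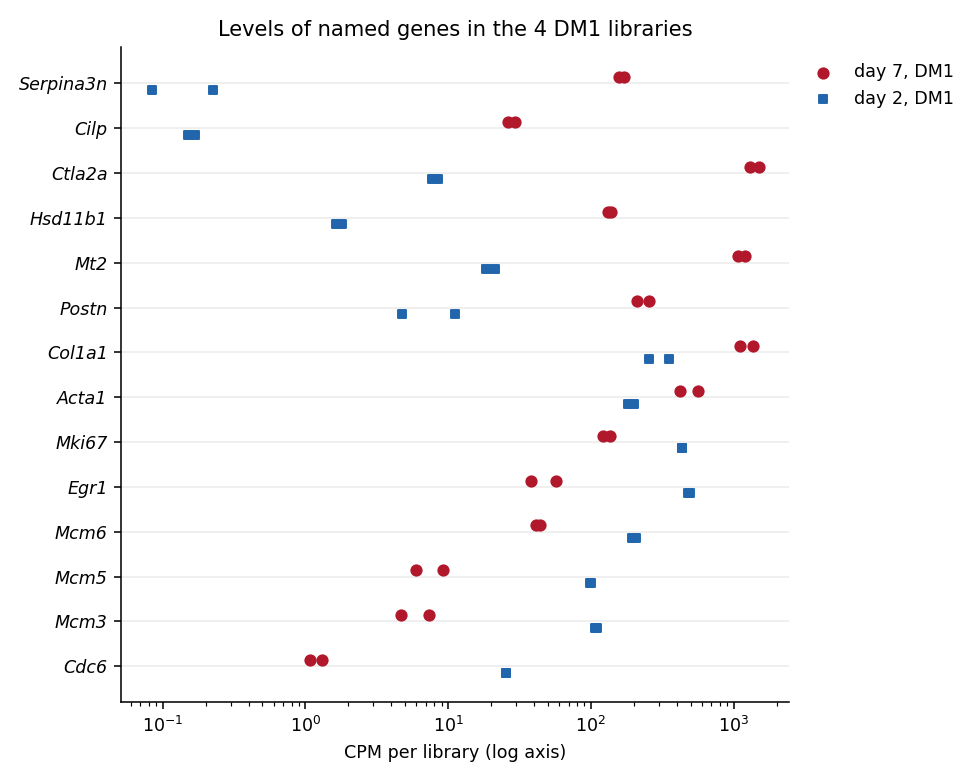
CPM of 14 genes in each DM1 library on a log axis, with day 7 as circles drawn above day 2 as squares. For every gene shown both day 7 libraries lie on the same side of both day 2 libraries, which the rule for naming the largest rises and falls required. Levels of different genes are not comparable, because CPM does not correct for transcript length.

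Acute phase proteins, which the liver secretes in inflammation and other cells make at low level, were called higher in 9 of the 11 list members that passed the expression filter, and lower in none; 13 of the 24 listed genes were too low to test. A gene that passed the filter only through its day 7 level had to differ, so this count is a description. Serpina3m, a neighbour of Serpina3n in the same gene cluster, had 61.57 and 59.02 CPM at day 7 and no count in either day 2 library. Set against a floor of 3 counts per library it was at least 506-fold higher. Orm1, an acid glycoprotein of plasma, had 10.9 and 6.135 CPM at day 7 and again no count at day 2, which makes it at least 71.5-fold higher. Ceruloplasmin (Cp), the copper-carrying ferroxidase, was already present at day 2: it had 297.2 and 298.7 CPM at day 7, against 84.38 and 82.96 CPM at day 2, a change of 1.83 ± 0.10 (adjusted p = 8.82e-08). Lcn2 was at 0 in all 4 libraries. Serpina3 and Orm genes have close paralogs beside them, and RSEM divides shared reads among such copies, so the split within each cluster is uncertain.

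Some of the transcripts absent from DM1 at day 2 were already present in the other media. Serpina3m then had a mean of 7.96 CPM in DM3 and 8.32 CPM in DM2, and Orm1 8.43 CPM in DM3. Day 2 sums over the whole list were 92.17 CPM in DM3 and 68.69 CPM in DM2, against 89.88 and 88.32 CPM in DM1. Nearly all of the DM1 sum at day 2 was Cp, so these sums do not describe the other members. Serpina3n stood at 140.7 and 127 CPM at day 7 in DM3 against 12.9 and 17.26 CPM at day 2, and its rise was larger in DM1 than in DM3 by 6.83 ± 0.48 log2 (adjusted p = 8.11e-06) and than in DM2 by 7.07 ± 0.48 (adjusted p = 2.18e-06). Of the 11 tested acute phase genes, 8 differed from DM3 with the larger rise in DM1, where 18.7% of all genes did so, and 7 from DM2, where 26% did. The expression filter bears on these genes as above, so these counts too are a description. Serpina3m and Orm1 had no count in DM1 at day 2, and their fitted differences depend on the prior count of the fit. The differences from DM3 and from DM2 use the same 4 DM1 libraries and are therefore not independent of each other.

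Of 10 tested complement genes, 6 were called higher and none lower. Factor B (Cfb), the protease of the alternative pathway, had 9.335 and 6.887 CPM at day 7 and 0.336 and 0.225 CPM at day 2, a change of 4.84 ± 0.40. C3, the component on which all complement pathways converge, had 2.209 and 3.756 CPM at day 7, against 0.084 and 0.075 CPM at day 2 (5.15 ± 0.45, adjusted p = 3.55e-06). Both were separated between days, at levels that for C3 amounted to few reads. Among 14 tested genes of MHC class I presentation, 7 were called higher, or 4 without replicate 1 of day 2. Tap2, a chain of the peptide transporter, had 16.68 and 14.61 CPM at day 7 against 6.759 and 6.601 CPM at day 2 (1.23 ± 0.13). Interferon-response genes gave 5 higher and 1 lower of 20, or 2 higher without replicate 1 of day 2 and none lower without replicate 2, and their median of -0.09 was near that of all genes.

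Glucocorticoid targets were mostly higher at day 7. Of 21 genes, 17 were called higher and 2 lower, with a median log2 change of 1.93. Hsd11b1, which regenerates active glucocorticoid from its inert keto form, had 139.6 and 131.5 CPM at day 7, against 1.805 and 1.65 CPM at day 2. The change was 6.29 ± 0.14 (78.3-fold higher, adjusted p = 1.07e-10). Both metal-binding metallothioneins rose: Mt2 had 1066 and 1212 CPM at day 7 and 18.39 and 21.34 CPM at day 2 (5.84 ± 0.13), and Mt1 had 813.1 and 823.1 CPM at day 7 and 21.75 and 25.24 CPM at day 2 (5.12 ± 0.15). Tsc22d3, which encodes the anti-inflammatory protein GILZ, had 527.1 and 558.4 CPM at day 7 against 52.44 and 49.92 CPM at day 2 (3.41 ± 0.10, adjusted p = 1.52e-09). Fkbp5, a co-chaperone that lowers receptor affinity, had 296.4 and 299 CPM at day 7 against 38.75 and 36.9 CPM at day 2 (2.98 ± 0.08, adjusted p = 4.04e-10). Klf9, a Krüppel-like repressor, followed with 96.52 and 98.71 CPM at day 7 and 26.15 and 29.33 CPM at day 2 (1.81 ± 0.15). In each of these genes the day 7 libraries lay far above the day 2 libraries.

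The receptor itself moved less. Nr3c1 had 124.8 and 136.4 CPM at day 7, against 99.25 and 90.76 CPM at day 2, a change of 0.46 ± 0.10 (adjusted p = 0.00395). Errfi1, a feedback inhibitor of the EGF receptor, was lower, with 273.5 and 258.1 CPM at day 7 and 488.5 and 462.9 CPM at day 2 (-0.84 ± 0.09). No DM1 library received dexamethasone per the labels, whereas DM3 contains it. Fkbp5 in DM3 was at 260.1 and 253 CPM at day 7 and 249.4 and 270.8 CPM at day 2, and the change in DM1 exceeded that in DM3 by 3.00 ± 0.10 (adjusted p = 1.16e-08). Tsc22d3 in DM3 was at 1113 and 1108 CPM at day 7 and 376.7 and 353.3 CPM at day 2, and the change in DM1 was larger by 1.80 ± 0.14 (adjusted p = 2.41e-06). Over the list, 15 of 21 genes changed more in the upward direction in DM1 than in DM3 and 1 less. Over all genes these shares were 18.7% and 16.3%. Against DM2 the counts were 16 and 1, where 26% and 23% of all genes differed in these directions.

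**Figure D3:**
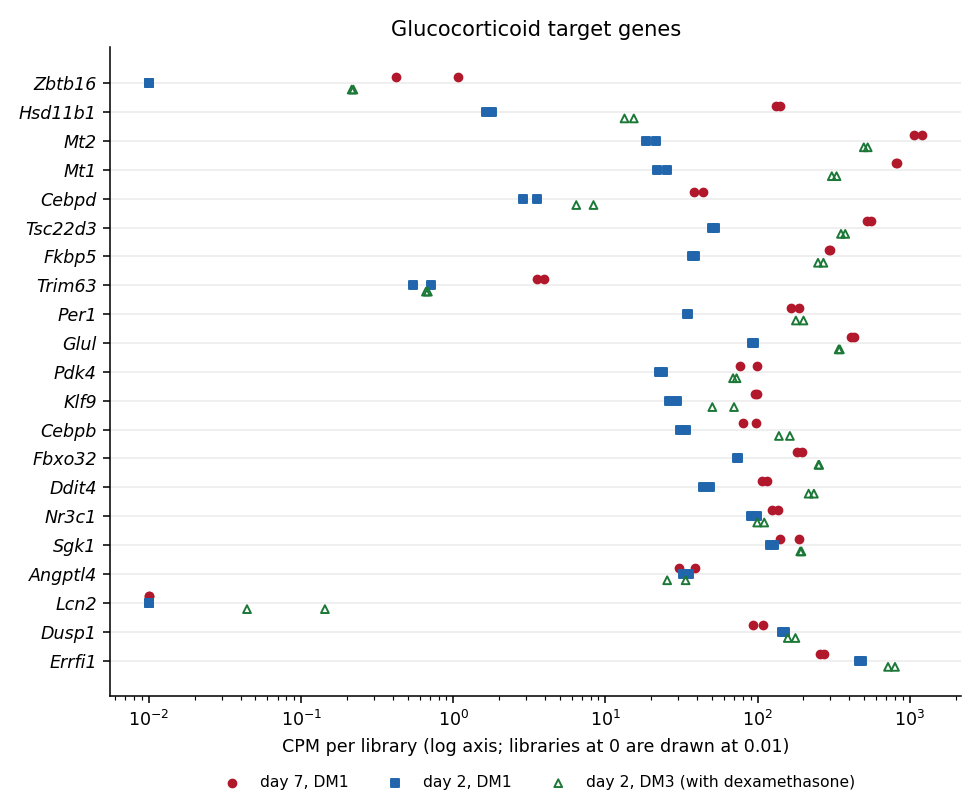
CPM of 21 glucocorticoid target genes per library on a log axis, at day 7 in DM1, at day 2 in DM1 and at day 2 in DM3, which contains dexamethasone; a library with no count is drawn at 0.01. For Fkbp5, Tsc22d3 and Mt2 the day 7 DM1 points lie above the day 2 points of DM1 and of DM3.

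DNA replication genes fell without exception. All 39 list members were tested, called lower and separated between days, from Cdc6 at -4.40 to Gins4 at -0.58, with a median of -2.38. Summed over the list the level was 653.9 and 640.1 CPM at day 7, against 2605 and 2616 CPM at day 2. By role, all 12 licensing genes, 20 fork genes and 7 nucleotide enzymes were lower. Promoters of 4 licensing genes are shown, since the letters recognised by E2F recur in them; sequences are RefSeq's, build GRCm38.p6, on the strand of the gene, and capitals mark 1 of 4 E2F-type words (TTTCCCGC, TTTCGCGC, TTTGCCGC, TTTGGCGC) or its reverse complement, overlapping words being joined.
Cdc6, chr11:98907991-98908040, plus strand: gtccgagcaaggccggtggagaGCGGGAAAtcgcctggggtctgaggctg
Mcm5, chr8:75109336-75109385, plus strand: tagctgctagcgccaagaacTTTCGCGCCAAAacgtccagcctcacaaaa
Mcm6, chr1:128359786-128359835, minus strand: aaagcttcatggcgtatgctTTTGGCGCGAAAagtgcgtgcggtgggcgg
Mcm3, chr1:20820266-20820294, minus strand: gGCGGGAAAacttgggaagtTTTGGCGCc
Such a word lay between 250 bases before and 50 bases after a listed start in 14 of the 32 replication genes with a promoter in the table (43.8%), in 7 of 10 licensing genes (70%), 7 of 16 fork genes (43.8%) and 0 of 6 nucleotide genes. The share over all 27025 genes with a promoter was 2.6%, and over the tested genes 4.52%. A match of letters describes the sequence and is not evidence of binding.

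Among the licensing genes, Cdc6, which loads the helicase on origins, had 1.318 and 1.085 CPM at day 7, against 25.61 and 25.61 CPM at day 2. Mcm5 had 9.157 and 5.927 CPM at day 7, against 97.9 and 99.53 CPM at day 2 (-3.70 ± 0.16). Mcm6 kept more of its transcript, with 41.19 and 44.2 CPM at day 7 and 205.9 and 194.6 CPM at day 2 (-2.23 ± 0.08, adjusted p = 3.11e-09). These subunits belong to the same hexamer, yet their folds ranged from 18-fold lower for Mcm3 to 4.69-fold lower for Mcm6. At the fork, Pole, the leading-strand polymerase, had 6.2 and 4.215 CPM at day 7 against 64.48 and 66.01 CPM at day 2 (-3.64 ± 0.22). Chaf1b, a histone chaperone of newly made DNA, had 2.138 and 1.878 CPM at day 7 against 18.93 and 19.84 CPM at day 2 (-3.27 ± 0.17). Dnmt1, the maintenance DNA methyltransferase, changed less, with 63.42 and 64.57 CPM at day 7 and 190.9 and 192.4 CPM at day 2 (-1.58 ± 0.10). In the nucleotide group, thymidine kinase (Tk1) had 5.63 and 3.172 CPM at day 7 and 62.09 and 65.11 CPM at day 2 (-3.84 ± 0.20). Rrm2, the small subunit of ribonucleotide reductase, was the least affected of those named, at 119.3 and 150.1 CPM at day 7 and 196.8 and 224.7 CPM at day 2 (-0.65 ± 0.11, adjusted p = 0.000665).

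The change of the replication genes was tested against that in the other media. It was lower in DM1 than in DM3 for 36 of 39 genes, where 16.3% of all genes were, and lower than in DM2 for 38 of 39, where 23% were. In DM3 the list summed to a mean of 756 CPM at day 7 and 1042 CPM at day 2, with a median change of -0.97. In DM2 the mean sums were 1956 CPM at day 7 and 1648 CPM at day 2, with a median change of 0.38. Mcm3 had 7.018 and 7.72 CPM at day 7 and 11.32 and 13.89 CPM at day 2 in DM3, and 61.76 and 62.64 CPM at day 7 and 25.56 and 24.81 CPM at day 2 in DM2. The DM1 change minus the DM3 change was -3.40 ± 0.23 (adjusted p = 9.83e-07) and minus the DM2 change -5.48 ± 0.22 (adjusted p = 1.43e-08). Ung, the uracil-DNA glycosylase of base excision repair, differed from DM3 by -5.71 ± 0.38 (adjusted p = 9.83e-07). It had 1.247 and 1.043 CPM at day 7 against 5.878 and 7.688 CPM at day 2 in DM1, and 4.185 and 4.107 CPM at day 7 against 0.617 and 0.322 CPM at day 2 in DM3.

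**Figure D4:**
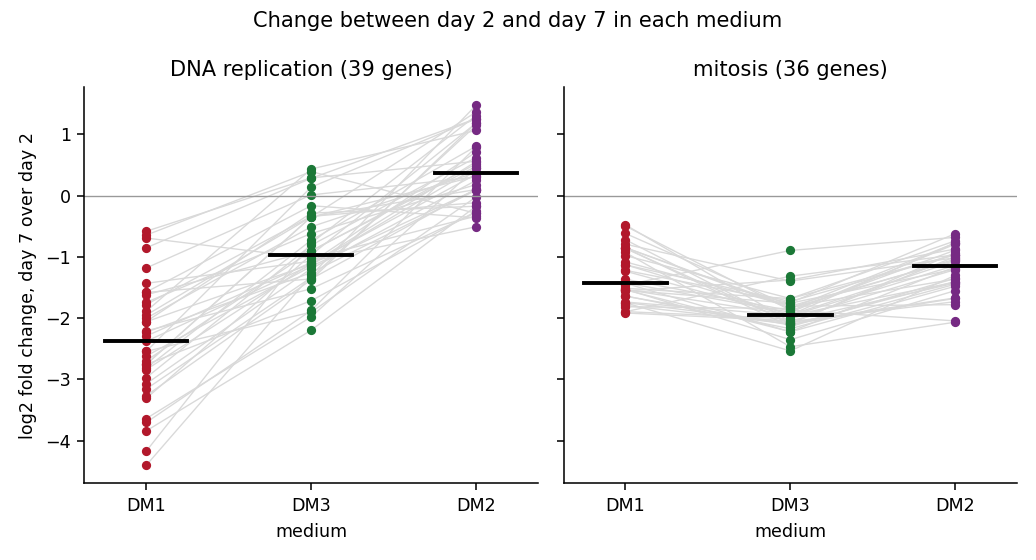
Log2 change from day 2 to day 7 in DM1, DM3 and DM2 for 39 replication genes and 36 mitosis genes, with black bars at the medians. Replication genes have medians of -2.38, -0.97 and 0.38 in DM1, DM3 and DM2, and mitosis genes -1.43, -1.95 and -1.15.

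Mitotic genes fell too. All 36 were called lower, from Kif11 at -1.92 to Cdc25c at -0.48, with a median of -1.43; the summed level was 2143 and 2150 CPM at day 7, against 5175 and 5148 CPM at day 2. Promoter stretches of 3 of them show the CHR letters TTTGAA in capitals.
Cdc20, chr4:118437344-118437393, minus strand: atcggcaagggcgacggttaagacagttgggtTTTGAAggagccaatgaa
Cdk1, chr10:69352913-69352962, minus strand: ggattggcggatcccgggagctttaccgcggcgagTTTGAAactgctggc
Mki67, chr7:135716460-135716509, minus strand: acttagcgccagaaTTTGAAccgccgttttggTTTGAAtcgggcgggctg
TTTGAA or its reverse complement was present in the window of 23 of 31 mitosis genes with a promoter (74.2%), 6 of 32 replication genes (18.8%) and 20.2% of all genes, whereas an E2F-type word was present in 2 of the 31 (6.45%). Mki67, a proliferation antigen of the nucleus, had 121.7 and 136.4 CPM at day 7, against 432.6 and 436.1 CPM at day 2 (-1.75 ± 0.18, adjusted p = 2.85e-05). Cdk1, the mitotic kinase, had 58.11 and 56.72 CPM at day 7 and 160.3 and 156.1 CPM at day 2 (-1.46 ± 0.08). Cdc20, the activator of the anaphase-promoting complex, had 71.62 and 63.11 CPM at day 7 and 124.9 and 120.2 CPM at day 2 (-0.86 ± 0.14, adjusted p = 0.000401). The kinase Aurkb fell by 1.90 ± 0.11 and the motor Kif11 by 1.92 ± 0.10 on the log2 scale.

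Mitotic genes declined less in DM1 than in DM3 for 25 of 36 members and more for 2. Over all genes, 18.7% and 16.3% differed in these directions. Fewer mitotic genes were called in either direction without replicate 1 of day 2 in DM1. Against DM2 the DM1 change was higher for 8 of 36 and lower for 15, where 26% and 23% of all genes differed in these directions. The median change in DM3 was -1.95. Ccna2, the cyclin of S phase and G2, had 67.34 and 76.09 CPM at day 7 against 187.3 and 199.6 CPM at day 2 in DM1, and 33.52 and 33.88 CPM at day 7 against 174.5 and 140.7 CPM at day 2 in DM3; the difference of the changes was 0.79 ± 0.14 (adjusted p = 0.00108). For Cdc20 it was 1.21 ± 0.19 (adjusted p = 0.000493). Top2a, by contrast, gave 0.03 ± 0.13, for which no difference was detected (adjusted p = 0.902).

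Of 15 activators of the cycle, 14 were lower at day 7 and 1 was higher. Mybl2, a transcription factor of the late cycle, averaged 1.93 ± 0.106 CPM at day 7 and 20.8 ± 1.53 CPM at day 2 (SD, n = 2 each; log2 change -3.43 ± 0.14). Ccne2, the cyclin of S phase entry, had 1.888 and 2.003 CPM at day 7, against 20.82 and 18.38 CPM at day 2 (-3.33 ± 0.14). The D cyclins diverged: Ccnd1 had 168.1 and 157.3 CPM at day 7 and 306.8 and 325.7 CPM at day 2 (-0.96 ± 0.10), while Ccnd2 had 210.3 and 184 CPM at day 7 and 96.69 and 98.45 CPM at day 2 (1.01 ± 0.11, adjusted p = 2.98e-05). Of 15 tested brakes, 4 were higher and 3 lower, counts that dropped to 1 each without replicate 2 and without replicate 1 of day 2. Cdkn1b, the p27 inhibitor, had 139.5 and 153.2 CPM at day 7, against 71.92 and 79.84 CPM at day 2 (0.95 ± 0.14). Rbl1, the pocket protein p107 and itself an E2F target, fell to 11.44 and 11.06 CPM at day 7, against 52.48 and 49.58 CPM at day 2 (-2.18 ± 0.15). Cdkn1a, the p21 inhibitor, had 325.5 and 337.7 CPM at day 7 and 239.1 and 246.9 CPM at day 2; its change of 0.45 ± 0.13 was called (adjusted p = 0.0168) but not without replicate 1 of day 2 (0.0957), replicate 2 of day 2 (0.0674) or replicate 2 of day 7 (0.0805).

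The myogenic factors did not move together. Of 15, 5 were called higher and 4 lower, or 3 higher without replicate 1 of day 2. Myog, the factor of terminal differentiation, had 53.52 and 40.86 CPM at day 7, against 47.19 and 39.87 CPM at day 2; the change of 0.12 ± 0.14 was not called (adjusted p = 0.553) and the libraries overlapped. Myod1 had 38.37 and 27.84 CPM at day 7, against 66.71 and 66.68 CPM at day 2 (-1.01 ± 0.17, adjusted p = 0.000701). Myf5, its relative, went up, with 122.7 and 138.4 CPM at day 7 and 57.81 and 51.23 CPM at day 2 (1.26 ± 0.10, adjusted p = 1.30e-06). Id2, an inhibitor of these factors, had 4.062 and 6.261 CPM at day 7 and 14.65 and 20.81 CPM at day 2 (-1.79 ± 0.23). Pax7, the satellite cell factor, stayed at or below 0.3375 CPM in all 4 libraries. In DM3, Myog rose to 1110 and 994.9 CPM at day 7, against 204.3 and 231 CPM at day 2, and the DM1 change was smaller by 2.16 log2 units, a difference of -2.16 ± 0.19 (adjusted p = 8.12e-06).

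Fusion genes gave 4 higher and 6 lower of 13, and of these 3 higher and 1 lower changed at least 2-fold. N-cadherin (Cdh2), which joins myoblasts, had 32 and 28.3 CPM at day 7, against 74.6 and 71.74 CPM at day 2 (-1.28 ± 0.08). Among 9 genes associated with reserve cells or quiescence, 2 rose and 3 fell, with a median of -0.03. Those that fell were the adhesion molecule Vcam1 (89.26 and 97.5 CPM at day 7, 147.7 and 150.7 CPM at day 2), the growth factor receptor Met (93.28 and 103.3 CPM at day 7, 137.9 and 141.8 CPM at day 2) and the transcription factor Nfix (156.6 and 143.3 CPM at day 7, 182.2 and 181.6 CPM at day 2). Those that rose were Cd34 and Gas1. Cd34, a surface glycoprotein of quiescent progenitors, had 234.8 and 246.7 CPM at day 7, against 113.4 and 100.7 CPM at day 2 (1.17 ± 0.09, adjusted p = 1.99e-06), and its change exceeded that in DM3 by 1.98 ± 0.14 (adjusted p = 1.19e-06). Gas1, a growth arrest membrane protein, had 205 and 128.1 CPM at day 7 and 58.61 and 51.38 CPM at day 2 (1.60 ± 0.17). In the Notch pathway 2 of 12 genes rose and 6 fell, or 3 without replicate 2 of day 2. Hes1, its direct target, had 17.42 and 12.27 CPM at day 7, against 47.99 and 41.89 CPM at day 2 (-1.59 ± 0.16).

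Most sarcomere genes were higher at day 7. Of 33 tested genes of the filaments and Z-disc, 23 were called higher and 2 lower, with a median of 1.20. Of the lower genes, Nebl (-1.06) was not called whichever DM1 library was left out. Not all rises held either: titin (Ttn), nebulin (Neb) and alpha-actinin 2 (Actn2) were not called without replicate 2 of day 2. Their log2 changes were then 0.92, 1.23 and 2.45, against 0.87, 1.15 and 3.12 with all libraries. Other libraries mattered too. Ttn and Neb were not called without replicate 1 of day 2, Ttn not without replicate 2 of day 7, and Neb and Actn2 not without replicate 1 of day 7. In a second list, of developmental, slow and fast isoforms, 20 of 28 were higher and 3 lower, with a median of 1.30. Skeletal actin (Acta1) had 561 and 422.4 CPM at day 7, against 200.5 and 181.9 CPM at day 2 (1.36 ± 0.16, adjusted p = 6.15e-05). Embryonic myosin (Myh3) had 168.3 and 119.6 CPM at day 7, against 65.53 and 55.09 CPM at day 2 (1.25 ± 0.18). The embryonic light chain Myl4 had 97.81 and 76.17 CPM at day 7, against 19.27 and 16.13 CPM at day 2 (2.30 ± 0.15). All 3 were separated between days, with replicate 1 of day 7 above replicate 2 in each.

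Slow and fast genes were both represented. Myh7, the slow myosin heavy chain, had 20.74 and 12.56 CPM at day 7, against 2.771 and 1.613 CPM at day 2 (2.93 ± 0.42, adjusted p = 0.000574). Casq2, the slow calsequestrin that stores calcium, had 81.74 and 71.41 CPM at day 7 and 22.8 and 21.23 CPM at day 2 (1.80 ± 0.22). Its fast counterpart Casq1 had 6.805 and 5.259 CPM at day 7 and 0.546 and 0.413 CPM at day 2 (3.65 ± 0.27, adjusted p = 8.04e-07). Of the 7 slow genes tested 4 were higher and 2 lower, and of the 13 fast genes 11 were higher and 1 lower. The slow gene Atp2a2, called lower (-0.26), was not called whichever DM1 library was left out. Whether the classes differed was not tested. Tropomyosin 1 (Tpm1), which non-muscle cells also use in their actin cables, fell to 374.1 and 326.5 CPM at day 7, against 746.7 and 716 CPM at day 2 (-1.06 ± 0.09). Xirp1, an actin-binding protein of cell junctions, had 15.64 and 13.73 CPM at day 7 and 43.7 and 42.53 CPM at day 2 (-1.55 ± 0.11).

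In DM3 the same lists had median changes of 3.34 and 4.91. The DM1 change was smaller for 25 of 33 and 21 of 28 genes, where 16.3% of all genes had the lower change in DM1. Acta1 reached 13398 and 12529 CPM at day 7 in DM3, against 220.7 and 287.9 CPM at day 2, a change larger than in DM1; the difference was -4.31 ± 0.24 (adjusted p = 3.65e-07). For Myh3 it was -3.24 ± 0.25 (adjusted p = 5.07e-06). Against DM2, Acta1 differed by -2.82 ± 0.23 and Myh3 by -2.84 ± 0.26, from low levels at day 2 in DM2 (15.31 and 11.64 CPM, and 5.249 and 4.161 CPM).

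**Figure D5:**
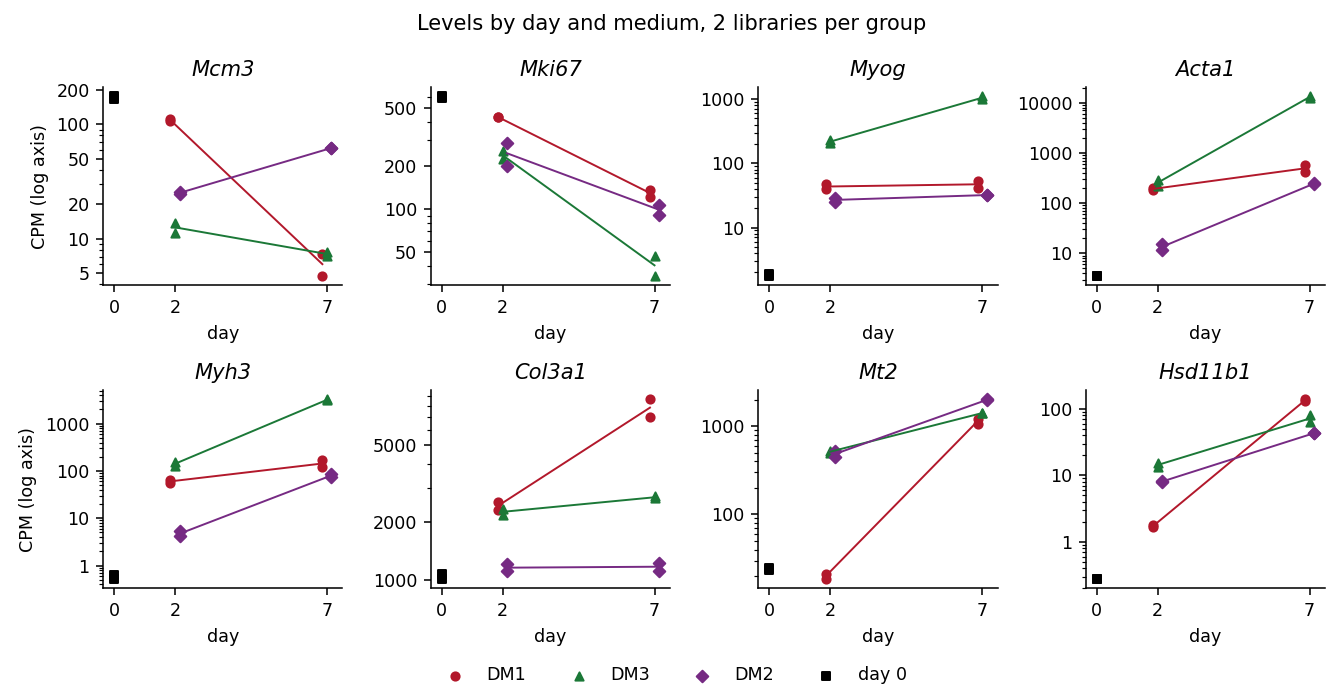
CPM of 8 genes by day (0, 2, 7) and medium on a log axis; points are libraries and lines join the means of each medium, with day 0 shared. Mcm3 is low at day 7 in DM1 and DM3 and higher in DM2, Acta1 and Myh3 climb most in DM3, and Col3a1 climbs in DM1.

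Genes of calcium release and the neuromuscular junction gave 16 higher and 3 lower of 29, or 10 higher without replicate 1 and 1 lower without replicate 2 of day 2. Scn4a, the muscle sodium channel, had 5.843 and 5.801 CPM at day 7, against 1.05 and 1.163 CPM at day 2 (2.39 ± 0.17). Musk, the receptor kinase that clusters acetylcholine receptors, had 50.17 and 47.29 CPM at day 7 and 23.55 and 22.31 CPM at day 2 (1.09 ± 0.14, adjusted p = 9.99e-05). Chrnb1, a receptor subunit, was lower, with 54.98 and 44.12 CPM at day 7 and 70.66 and 73.62 CPM at day 2 (-0.54 ± 0.10). In the dystrophin complex 5 of 12 were higher and none lower, or 3 without replicate 2 of day 2. Muscle energy genes gave 11 higher and 2 lower of 17. Brain-type creatine kinase (Ckb) fell to 39.27 and 26.96 CPM at day 7, against 79.6 and 72.79 CPM at day 2 (-1.20 ± 0.19), while the muscle enzyme Ckm had 10.51 and 8.806 CPM at day 7 against 6.759 and 7.126 CPM at day 2. The Ckm change of 0.48 ± 0.13 was called (adjusted p = 0.0112), but not without replicate 1 of day 2 (0.0801) or replicate 1 of day 7 (0.116). Of 37 respiratory chain genes 1 was called higher and 5 lower, or 1 lower without replicate 2 of day 2, and their median of -0.05 was near that of all genes.

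Extracellular matrix genes were more often higher than lower at day 7. Fibrillar collagens gave 6 higher and 1 lower of 8, other collagens 5 higher and 3 lower of 13. The enzymes that process collagens gave 9 higher and 2 lower of 15. The lower fibrillar gene, Col5a3 (-0.31), was not called without replicate 1 or replicate 2 of day 2, or without replicate 1 of day 7. Col1a1 had 1361 and 1111 CPM at day 7, against 352.2 and 257.6 CPM at day 2 (2.02 ± 0.15, adjusted p = 1.36e-06). Col3a1, the collagen of loose connective tissue, had 8665 and 7032 CPM at day 7, against 2541 and 2309 CPM at day 2 (1.69 ± 0.11, adjusted p = 2.89e-07). Collagen VI, the pericellular network of muscle, rose in 2 of its chains: Col6a2 had 532.1 and 478.2 CPM at day 7 against 53.4 and 53.85 CPM at day 2 (3.24 ± 0.13), and Col6a1 had 1054 and 1029 CPM against 183.5 and 184.6 CPM (2.50 ± 0.11). Of the crosslinking enzymes, Lox was higher (842.8 and 1315 CPM at day 7, 479 and 449.6 CPM at day 2) and Loxl2 lower (125.7 and 121.3 CPM at day 7, 289 and 275.3 CPM at day 2). Every one of the 8 fibrillar genes changed more in the upward direction in DM1 than in DM3, and likewise against DM2. Over all genes, 18.7% and 26% did so. For Col3a1 the differences were 1.44 ± 0.15 (adjusted p = 2.45e-05) and 1.68 ± 0.15 (adjusted p = 2.86e-06).

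Proteoglycans and matrix glycoproteins gave 16 higher and 3 lower of 31 tested. Periostin (Postn), which crosslinks collagen, had 255.5 and 211.6 CPM at day 7, against 11.13 and 4.763 CPM at day 2; the change of 4.88 ± 0.32 (29.5-fold higher) was 5.62 (49.0-fold) without replicate 1 of day 2. Fibronectin (Fn1) was at 8601 and 7450 CPM at day 7 and 8726 and 8870 CPM at day 2, a change of -0.13 ± 0.20 that was not called (adjusted p = 0.665). Prg4, the joint lubricant lubricin, had 14.57 and 8.806 CPM at day 7 and 1.134 and 0.713 CPM at day 2 (3.67 ± 0.36), while every DM3 and DM2 library held at least 178 CPM. Proteases gave 9 higher and 2 lower of 14, or 1 lower without replicate 1 of day 2. Gelatinase A (Mmp2) had 1096 and 987.5 CPM at day 7, against 207.9 and 201.2 CPM at day 2 (2.35 ± 0.10, adjusted p = 1.15e-08). Mmp19 had 89.93 and 79.59 CPM at day 7 and 17.34 and 16.84 CPM at day 2 (2.31 ± 0.09). Adam12, a protease linked to myoblast fusion, had 78.17 and 94.53 CPM at day 7 and 15.16 and 16.84 CPM at day 2 (2.43 ± 0.19).

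Ctla2a, which encodes a cysteine protease inhibitor, had 1505 and 1300 CPM at day 7, against 8.48 and 7.726 CPM at day 2. The change was 7.43 ± 0.15 (173-fold higher, adjusted p = 9.71e-11). In DM3 it stood at 876 and 770.3 CPM at day 7 and 832.2 and 741.7 CPM at day 2, so the change in DM1 was larger by 7.37 ± 0.18 (adjusted p = 9.43e-10). The gene shares reads with its neighbour Ctla2b, and the division between them is uncertain. Zxda, a zinc finger gene with a near copy, had 5.808 and 4.633 CPM at day 7 and no count at day 2, at least 43.8-fold higher.

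Other genes with large rises from low levels were Slc10a6, a carrier of steroid sulfates, with 9.977 and 12.85 CPM at day 7 and 0.168 and 0.113 CPM at day 2 (6.31 ± 0.32, adjusted p = 5.30e-08), and Hspb7, a small heat shock protein of muscle, with 21.81 and 32.51 CPM at day 7 and 0.168 and 0.375 CPM at day 2 (6.60 ± 0.37). Angptl7, a secreted angiopoietin-like protein, had 15.57 and 25.5 CPM at day 7 and 0.336 and 0.113 CPM at day 2 (6.51 ± 0.44). These folds rest on few reads at day 2: without replicate 2 of day 2 the change of Hspb7 was 7.30 and that of Angptl7 5.91, and without replicate 1 that of Angptl7 was 7.45. Genes with large falls outside the replication list were Exo1, an exonuclease of mismatch repair, with 1.354 and 0.96 CPM at day 7 and 13.56 and 13.54 CPM at day 2 (-3.54 ± 0.17), and Dock8, an exchange factor of CDC42, with 2.067 and 2.922 CPM at day 7 and 26.95 and 25.8 CPM at day 2 (-3.40 ± 0.26). Car8, a relative of the carbonic anhydrases, had 0.748 and 0.668 CPM at day 7 and 8.774 and 8.588 CPM at day 2 (-3.60 ± 0.24).

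Immediate early genes, the transcription factors and phosphatases that serum and growth factors induce within minutes, were mostly lower. Of 19 genes, 13 were called lower and 1 higher (none higher when any 1 of the 4 DM1 libraries was left out), with a median of -0.95, and 14 of 19 had a lower change in DM1 than in DM3, against 16.3% of all genes. Egr1 had 57.01 and 37.98 CPM at day 7, against 493.8 and 480 CPM at day 2 (-3.36 ± 0.22, adjusted p = 1.52e-06). Egr2 had 1.354 and 1.043 CPM at day 7, against 9.656 and 8.326 CPM at day 2 (-2.90 ± 0.27). Dusp5, a phosphatase that inactivates ERK, had 6.805 and 6.678 CPM at day 7 and 32.54 and 29.59 CPM at day 2 (-2.20 ± 0.11). Jun did not follow, with 374.4 and 332.3 CPM at day 7 and 301 and 277.4 CPM at day 2 (0.29 ± 0.11, adjusted p = 0.0604). The hours since fresh medium, on which such genes depend, are not given for either day and were not tested.
The promoters of Egr2 and Dusp5, which fell, and of Acta1, which rose, are shown because all 3 hold the letters of a serum response element, the site of SRF, in capitals.
Egr2, chr10:67537776-67537825, plus strand: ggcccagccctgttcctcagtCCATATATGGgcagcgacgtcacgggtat
Dusp5, chr19:53529048-53529097, plus strand: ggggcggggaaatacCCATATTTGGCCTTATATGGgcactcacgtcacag
Acta1, chr8:123894819-123894868, minus strand: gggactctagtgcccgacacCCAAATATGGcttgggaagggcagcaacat
Common forms of this element, the CArG box, were searched on both strands. They occurred in 3 of 14 immediate early genes with a promoter (21.4%), 2 of 16 thin filament and Z-disc genes (12.5%) and 0.433% of all genes. Egr2 has 5 listed starts, and the window shown belongs to 1 of them.

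Targets of SRF partners and of TGF-beta moved unevenly. Cyr61, a matricellular protein, had 125.4 and 151.5 CPM at day 7, against 534.8 and 482.8 CPM at day 2 (-1.88 ± 0.13, adjusted p = 5.55e-07). Its relative Ctgf had 514.1 and 698.6 CPM at day 7 and 376.5 and 365.2 CPM at day 2 (0.71 ± 0.14). Ankrd1, a stretch-responsive repressor of muscle, had 320 and 267.3 CPM at day 7 and 737.5 and 664 CPM at day 2 (-1.25 ± 0.12), whereas in DM3 it had 1841 and 1618 CPM at day 7 and 251.9 and 289.7 CPM at day 2. The difference between the changes was -3.93 ± 0.18 (adjusted p = 7.39e-08). Among 21 ligands and receptors of the family 7 were higher and 5 lower.

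Of 20 enzymes of cholesterol synthesis, 17 were called lower and none higher, with a median of -0.60, and 14 were called lower without replicate 1 of day 2. Hmgcs1, an entry enzyme, had 180.1 and 234.1 CPM at day 7 and 333 and 335.4 CPM at day 2 (-0.69 ± 0.13). Abca1, which exports cholesterol, went up, with 11.4 and 7.22 CPM at day 7 and 3.275 and 2.85 CPM at day 2 (1.61 ± 0.27). The letters CCAAT were in the promoter window of 14 of 15 synthesis genes (93.3%), against 41.1% of all genes. Such a share was not particular to this list. It was 93.3% for endoplasmic reticulum chaperones and 81.2% for clock genes, lists with more genes higher than lower at day 7. The sterol element letters TCACNCCAC were in 1 of 15 synthesis genes (6.67%), against 1.44% of all genes. Fatty acid synthesis showed 8 lower and 1 higher of 15, with Elovl6, the elongase of long chains, at 38.23 and 44.32 CPM at day 7 and 104.4 and 100.6 CPM at day 2 (-1.31 ± 0.12). Only 4 of the 20 cholesterol genes fell more in DM1 than in DM3, or 2 without replicate 2 of day 2 in DM1, a share near or below the background of 16.3%.

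Fuel use genes included Pdk4, the kinase that shuts pyruvate out of mitochondria, with 77 and 99.83 CPM at day 7 against 22.46 and 24.04 CPM at day 2 (1.93 ± 0.12, adjusted p = 3.04e-07). In DM3 and DM2 it fell over the same days, by 0.91 and 3.29 on the log2 scale, and the differences were 2.84 ± 0.17 (adjusted p = 4.56e-07) and 5.22 ± 0.18 (adjusted p = 4.13e-09). Txnip, which curbs glucose uptake, had 681.1 and 818 CPM at day 7, against 180.2 and 208.7 CPM at day 2 (1.95 ± 0.15). In DM2 it had 1.204 and 1.401 CPM at day 7 and 517.1 and 577.6 CPM at day 2, and the change in DM1 was larger by 10.66 ± 0.25 (adjusted p = 4.13e-10). Glycolysis genes as a list gave 7 higher and 1 lower of 19.

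Of 12 ubiquitin ligases and FOXO targets, 9 were higher and none lower. Trim63, the ligase MuRF1, had 3.527 and 3.923 CPM at day 7, against 0.546 and 0.713 CPM at day 2 (2.55 ± 0.20, adjusted p = 3.30e-06). Autophagy gave 5 higher of 11 and lysosomal enzymes 12 of 22, with none lower in either. Neu1, the lysosomal sialidase, had 25.83 and 22.96 CPM at day 7 and 11 and 10.43 CPM at day 2 (1.19 ± 0.11), and the median lysosomal change was 0.30. Of 17 ATF4 targets, which answer amino acid shortage and unfolded protein, 12 rose and none fell. Trib3, a pseudokinase of that response, had 32.71 and 29.63 CPM at day 7, against 7.473 and 6.376 CPM at day 2 (2.17 ± 0.16). Slc7a11, the cystine importer, had 16.57 and 18.78 CPM at day 7 and 2.729 and 3.525 CPM at day 2 (2.49 ± 0.26). The DM1 change was lower than that in DM2 for 15 of 17 genes of this list, and for 23% of all genes. Endoplasmic reticulum chaperones gave 7 higher of 16, or 2 without replicate 2 of day 7. Antioxidant genes gave 11 higher and 4 lower of 18, or 7 higher and 2 lower without replicate 1 of day 2; Gpx3, a secreted peroxidase, had 32.07 and 47.08 CPM at day 7 and 6.801 and 6.413 CPM at day 2 (2.58 ± 0.16). Ribosome biogenesis gave 2 higher and 6 lower of 20. All 20 differed from DM2 and 17 from DM3 in the direction of a lower change in DM1. Over all genes, 23% and 16.3% did so.

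Growth factor genes were mixed. Igf2 had 14.75 and 13.81 CPM at day 7, against 4.24 and 5.175 CPM at day 2 (1.60 ± 0.10), and its imprinted neighbour H19, a noncoding RNA of differentiating muscle, had 4135 and 4402 CPM at day 7 against 2389 and 2271 CPM at day 2 (0.87 ± 0.10). In DM3 both rose more, with differences of -2.28 ± 0.14 (adjusted p = 5.07e-07) and -1.34 ± 0.15 (adjusted p = 3.84e-05). Igfbp4, which sequesters insulin-like growth factors, had 165.7 and 122 CPM at day 7 and 28.93 and 26.14 CPM at day 2 (2.39 ± 0.14). The Wnt list gave 8 higher and 2 lower of 22, or 5 higher without replicate 1 of day 7 and 1 lower without replicate 1 of day 2. Axin2, a feedback target of the pathway, had 5.808 and 4.675 CPM at day 7 and 0.756 and 0.638 CPM at day 2 (2.91 ± 0.33), and Wisp2, a secreted regulator, had 32.21 and 23.25 CPM at day 7 and 2.477 and 2.438 CPM at day 2 (3.50 ± 0.17). Chemokines and interleukins gave 8 higher and 7 lower of 18. Ccl2, the monocyte attractant, fell to 1.96 and 1.753 CPM at day 7, against 6.339 and 5.775 CPM at day 2 (-1.70 ± 0.24).

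Of 18 clock genes, 13 were higher and 1 lower. The lower gene, Arntl (-0.33), was not called without replicate 1 or replicate 2 of day 2, or without replicate 1 of day 7. Its log2 changes in these fits were -0.29, -0.36 and -0.25. Per1, a repressor of the clock and also a glucocorticoid target, had 164.6 and 187.8 CPM at day 7, against 34.17 and 34.88 CPM at day 2 (2.35 ± 0.11, adjusted p = 2.39e-08). Hlf, an output factor of the PAR family, had 12.54 and 12.31 CPM at day 7 and 2.015 and 1.838 CPM at day 2 (2.69 ± 0.23). Per1 in DM3 was at 169 and 190.9 CPM at day 7 and 178.5 and 200.3 CPM at day 2, and the DM1 change was larger by 2.42 ± 0.15 (adjusted p = 4.12e-07). The hour of harvest is not given in the labels, and its part was not tested.

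Markers of other lineages were measured beside these results, and their part in them was not tested. Fibro-adipogenic markers, of which 6 of 9 were higher and 1 lower, summed to 1424 and 1518 CPM at day 7, against 831.5 and 826.2 CPM at day 2. Ly6a, the surface antigen Sca-1, made up much of this, with 1025 and 1106 CPM at day 7 and 557.5 and 575.1 CPM at day 2. Adipocyte markers summed to 150.3 and 176.3 CPM at day 7 and 91.82 and 96.83 CPM at day 2; 4 of 6 tested were higher, and 5 of the 12 listed were at 0 in all 4 libraries. Fabp4, the adipocyte lipid carrier, had 1.853 and 3.506 CPM at day 7 and 0.126 and 0.113 CPM at day 2 (4.43 ± 0.43). Smooth muscle markers summed to 1209 and 1152 CPM at day 7 and 1857 and 1792 CPM at day 2, with 3 of 10 higher and 5 lower. Tendon and cartilage markers other than single genes such as Cilp gave 3 higher and 2 lower of 7, or 1 lower without replicate 1 of day 2, and their sums were 145.7 and 116.2 CPM at day 7 and 133.6 and 134.1 CPM at day 2. Bone markers summed to 536.5 and 463.3 CPM at day 7 and 1905 and 2508 CPM at day 2, mostly osteopontin (Spp1), the 1 of 7 tested that was called lower, with 450.2 and 364 CPM at day 7 and 1838 and 2437 CPM at day 2 (-2.39 ± 0.27). Runx2, the bone lineage factor, had 73.29 and 87.86 CPM at day 7 and 58.15 and 64.36 CPM at day 2, and was 1 of 2 bone markers called higher, of which none was called without replicate 1 of day 2; the median over the 7 was 0.40. Endothelial markers summed to at most 7.501 CPM in any DM1 library, and immune markers to at most 12.47 CPM.

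Across all genes, the change from day 2 to day 7 in DM1 differed from that in DM3 for 5582 of 15973 genes (34.9%), 2986 with the higher change in DM1 and 2596 with the lower. From that in DM2 it differed for 7830 genes (49%), 4152 higher and 3678 lower. With libraries scaled by their totals alone, the split was 4097 higher and 1797 lower against DM3, and 5410 higher and 2702 lower against DM2. That scaling moved the median difference of all genes by 0.169 log2 against DM3 and by 0.23 against DM2.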

How the data were processed

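RNA of 14 C2C12 libraries was sequenced on a stranded poly(A) protocol (single-end, 50 bases) per the labels' protocols. The authors deposited expected counts per gene and library, from STAR 2.5.1b and RSEM 1.2.31 on GRCm38.p5 with Gencode vM12, per the submitters' processing notes. RSEM divides reads shared between similar genes, and counts need not be whole. Here they were rounded and fitted with edgeR 4.0.16 (R 4.3.3; TMM scaling, filterByExpr by group, robust quasi-likelihood) over all 14 libraries and 7 groups without a replicate term, leaving 15973 of 49671 genes. A called gene has a Benjamini-Hochberg adjusted p under 0.05. CPM use TMM-scaled totals. Ratios against groups without counts use a floor of 3 counts per library and cover counting error only. The script was tested on simulated data. Promoters are RefSeq's on GRCm38.p6.

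Members and the 42 gene lists were chosen with earlier results of these data known, and lists are described by counts and medians, without a list test. Named genes are Serpina3n, Cilp and Mcm3, the 12 largest called rises and falls at 5 CPM or more, up to 4 per role of each list, 10 set genes, and 4 per direction for each comparison of media. The largest rises and falls were taken only from genes whose libraries did not overlap between days. Tsc22d3, Fkbp5, Mt1, Klf9, Cdc20, Cdk1, Egr2, Dusp5, Gapdh and genes at the ends of ranges were chosen after their values were seen. Alternatives were DESeq2 1.42.0, other scalings and filters, unrounded counts, fewer groups, a replicate block and libraries left out. Some genes are not reported here.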

Additional observations from a re-analysis of the deposited data

Results flagged for a closer look

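The change from day 2 to day 7 differed between DM1 and DM3 for 5582 genes, by the test of the difference itself (edgeR quasi-likelihood, adjusted p under 0.05), and named genes among them are given as DM1 change minus DM3 change on the log2 scale. The difference was above 0 for Serpina3n (6.83), Hsd11b1 (3.97), Nr3c1 (0.57) and Mki67 (0.79), which fell less in DM1 than in DM3. It was below 0 for Mcm3 (-3.40), Ung (-5.71), Acta1 (-4.31), Ckm (-3.55), Myh3 (-3.24), Myog (-2.16), Myod1 (-1.07) and Cdkn1a (-0.86).

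Against DM2 the change differed for 7830 genes. The difference was above 0 for Txnip (10.66), Serpina3n (7.07), Hsd11b1 (3.87), Nr3c1 (0.69) and Myod1 (1.56), which fell less in DM1 than in DM2. It was below 0 for Mcm3 (-5.48), Ckm (-3.66), Myh3 (-2.84), Acta1 (-2.82) and Cdkn1a (-0.66). Both sets use the same 4 DM1 libraries. With 2 libraries per group, no test for a library far from its group was made.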

How the results depend on the processing

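Called genes between day 7 and day 2 in DM1 numbered 5482, and 5131 to 5810 under DESeq2 (5232), other scalings, no expression filter, unrounded counts or only the groups compared. Leaving out 1 DM1 library in turn, with the lone library assumed to vary like the other groups, gave 3674 to 4232 calls, with 1717 to 2051 higher and 1900 to 2181 lower; the higher count was 1774 without replicate 1 and 1717 without replicate 2 of day 2. For the difference from DM3, leaving out 1 library gave 4199 to 6336 calls, and from DM2 6830 to 7397. Replicate numbers did not pair the 2 days of DM1, whose deviations of replicate 1 from replicate 2 correlated at 0.0706. Those of day 0 and DM1 at day 2 correlated at 0.518. With DM3 at day 2 they correlated at -0.629 and -0.432. All other pairs of groups lay between -0.12 and 0.112. The groups with the stronger correlations hold the 3 libraries lowest in pseudogene reads, and a shared origin was not tested. With a replicate block, calls numbered 5447, 5570 and 7752. With the 3 libraries lowest in pseudogene reads left out (replicate 1 of day 0, replicate 1 of DM1 at day 2 and replicate 2 of DM3 at day 2), an alternative chosen after seeing the data, the counts were 4248, 4006 and 7517. Of 237 named genes, DESeq2 lost 4 calls and gained 5, and none reversed under any alternative. Low depth limits genes under a few counts per library.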
